A study of Homo sapiens with 16 samples.

Results

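Transcript levels of 31 genes of cholesterol and fatty acid synthesis, most of them targets of the sterol regulatory element-binding proteins (SREBPs), were followed in 16 poly(A) RNA libraries of the human clear cell renal carcinoma lines 786-O and A498. The genes were chosen by name from the 60606 gene names counted in each library. They fall into a sterol arm of 19 genes, a fatty acid arm of 8 and 4 regulators. Of 786-O there were 4 groups with 3 libraries in each: SETD2 KO cells given 100 nM A1331852, SETD2 WT cells given the same, KO cells given the vehicle DMSO, and WT cells given DMSO, all harvested at 72 h. Of A498 there were 2 SETD2 deficient libraries and 2 SETD2 add-back libraries, by their labels, all untreated. All cells grew in medium with serum, which carries cholesterol and fatty acids. SETD2 trimethylates lysine 36 of histone H3, and A1331852 inhibits the anti-apoptotic protein BCL-XL. The labels do not say whether the KO population was a clone, or what drove the added SETD2, so each SETD2 contrast compares a pair of populations of 1 line.

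Cells make cholesterol from acetyl-CoA. The mevalonate steps yield isoprenoids, these are joined to squalene, squalene is closed to lanosterol, and lanosterol is trimmed to cholesterol. Fatty acids start from the same acetyl-CoA, which is carboxylated, built into palmitate, elongated and desaturated. SREBPs, the products of SREBF1 and SREBF2, are held in the endoplasmic reticulum by SCAP and INSIG proteins while sterol is plentiful. When sterol is scarce, SCAP carries them to the Golgi, where they are cut, and the freed part enters the nucleus and switches on both arms. Clear cell renal carcinoma is known for its stores of cholesteryl ester and neutral fat.

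The letters that SREBPs read are shown first for the members whose proximal promoter holds the classical core, to give the context of the gene group. RefSeq promoters (GRCh38.p14) were at hand for 27 of the 31 members, and the 250 bases before each start were searched on both strands. TCACNCCA, the core of a sterol regulatory element, was in 3 of 27 (11.1%), MSMO1, MVK and SREBF2, against 3.18% of 27305 promoters of the same length. The E-box CACGTG was in 3 of 27 (11.1%, against 6.49%). CCAAT, the box of the SREBP partner NF-Y, was in 18 of 27 (66.7%, against 33.0%), including 13 of 16 sterol genes. The Sp1 box GGGCGG was in 25 of 27 (92.6%, against 42.3%). A core followed by AT shares its last letters, CCA, with a CCAAT box. These matches are descriptions and were not tested. A stretch of 100 bases around the core, all of it upstream of the annotated gene, is printed for MSMO1 (chr4:165327467-165327566, plus strand) and SREBF2 (chr22:41832926-41833025, plus strand), with the core in capitals.
MSMO1: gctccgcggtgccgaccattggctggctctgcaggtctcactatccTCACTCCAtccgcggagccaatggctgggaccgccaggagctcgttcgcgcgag
SREBF2: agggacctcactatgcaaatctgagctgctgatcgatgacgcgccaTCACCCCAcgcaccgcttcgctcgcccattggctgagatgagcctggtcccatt
Among the members without this core in the window are SCD, FADS2 and INSIG1, which are described at length here because their transcript levels differed most between the A498 groups. The absence of a match says only that these letters are not in these bases.

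The libraries held 14172118 to 36037616 counts. SETD2 itself had 30.2, 50.8 and 55.8 CPM (the count scaled to a common library total) in KO A1331852 libraries, and 75.1, 69.3 and 61.7 in WT A1331852. It had 29.0, 27.3 and 32.5 CPM in KO DMSO and 61.2, 62.7 and 65.9 in WT DMSO, so KO lay below WT in every library under both treatments, with KO A1331852 replicates 2 and 3 nearer to WT than to KO DMSO. In A498 it had 39.0 and 55.5 CPM in deficient and 48.3 and 56.7 in add-back libraries, which overlapped, and its transcript therefore does not separate the A498 labels. Replicates 1 and 2 of each DMSO group came from batch 2, replicate 3 and all A1331852 libraries from batch 1, and A498 from batch 3. DMSO replicate 3 stood apart from replicates 1 and 2 (mean chi-square per gene 82.1 to 118, against 2.96 and 3.47 between replicates 1 and 2, where 1 is expected from counting noise). Replicates within batch 1 also differed, at 22.1 to 85.7 in WT A1331852 and 20.7 to 49.9 in KO A1331852. A498 replicates stood at 16.8 in deficient and 5.62 in add-back, so DMSO replicates 1 and 2 were the closest pairs. Batch was a term shared by both genotypes in the 786-O tests. All A1331852 libraries were in batch 1 and that batch held 1 DMSO library of each genotype, replicate 3, so the A1331852 estimates lean on these libraries and on the batch difference estimated from the DMSO groups. Markers of renal carcinoma epithelium summed to 5100 to 5760 CPM in KO A1331852, 5480 to 5840 in WT A1331852, 5050 to 6840 in KO DMSO and 5850 to 8150 in WT DMSO libraries, with CA9 and LRP2 under 1 CPM throughout. Leukocyte and endothelial markers summed to at most 1.41 CPM, adipocyte markers to 0.0609 to 3.6, fibroblast markers to 1.91 to 63.2 and hepatocyte markers to 0 to 13.4 CPM. The high ends of the last 2 lists were in A498. Fibroblast sums there were 46.8 and 63.2 CPM in deficient and 46.6 and 52.2 in add-back libraries. Hepatocyte sums were 0.427 and 13.4 CPM in deficient, whose 2 libraries thus lay far apart, and 0.225 and 0.356 in add-back. In bulk RNA, fewer cells that express a gene cannot be told apart from less of its RNA per cell.

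**Figure D1:**
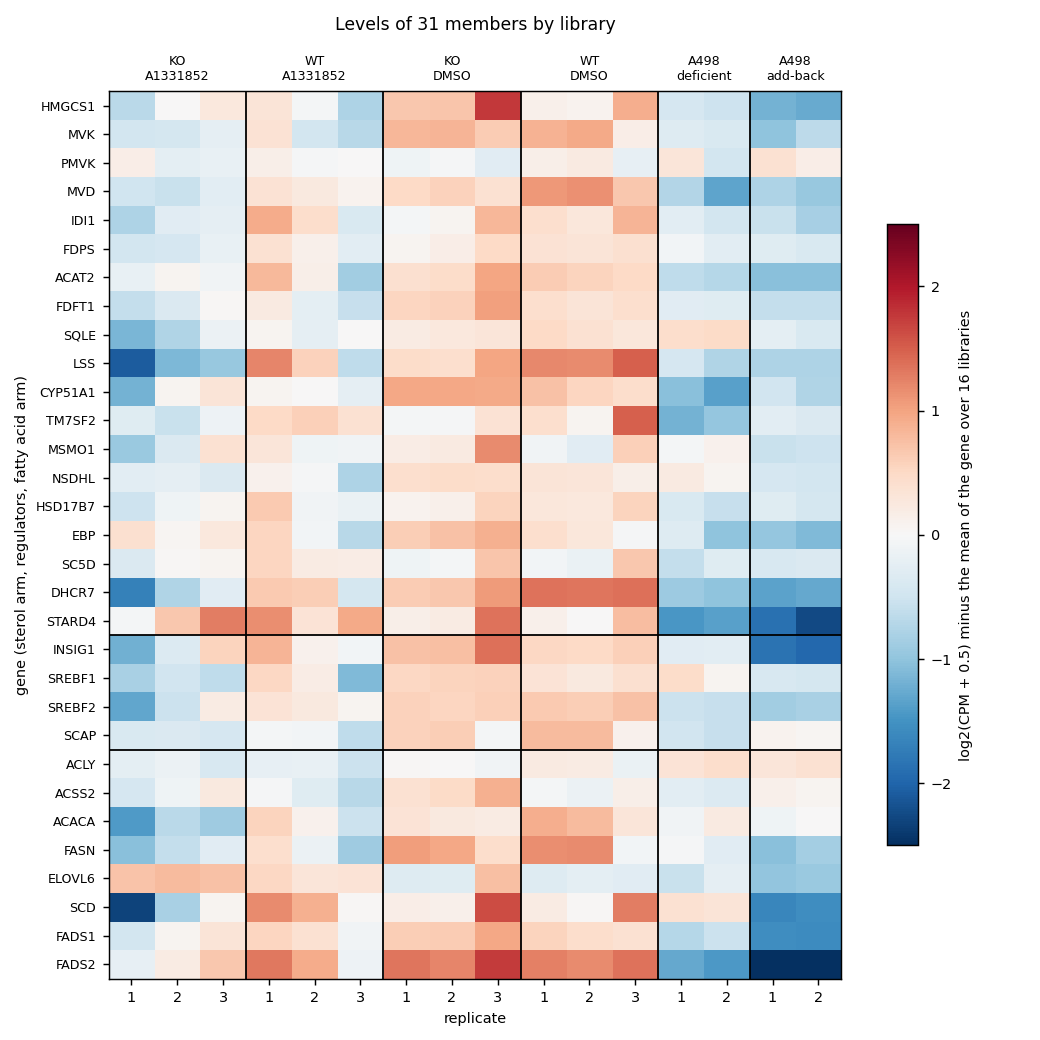
Level of each of the 31 genes (rows: sterol arm, regulators, fatty acid arm) in each of the 16 libraries (columns, by group and replicate number), as log2(CPM + 0.5) minus that gene's mean over the libraries. KO A1331852 replicate 1 is blue in most rows, WT A1331852 replicate 1 is red and replicate 3 pale or blue, and A498 add-back is darkest blue at FADS2, SCD and INSIG1.

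All 31 members passed the low-count filter and were tested in each comparison (edgeR quasi-likelihood, Benjamini-Hochberg over all genes, called at an adjusted p under 0.05). In A498, 19 of 31 members were higher in deficient than in add-back libraries (11 sterol, 5 fatty acid and 3 regulator genes) and SCAP alone was lower, where 30.2% of all genes were called, 15.1% higher and 15.1% lower. Scaled by total counts only, which moved the median of all genes by -0.155, 14 members were higher and 3 lower. The renal carcinoma epithelial markers moved the same way: 7 of 8 tested were higher in deficient libraries and 0 lower, with a median log2 change of 0.616 and sums of 5140 to 5490 CPM in deficient against 4000 to 4080 in add-back libraries, and their part in the members' difference was not tested. In 786-O KO cells, A1331852 lowered 18 of 31 members (58.1%: 11 sterol, 5 fatty acid, 2 regulators), where 13.5% of all genes were called, 6.46% higher and 7.08% lower. Under A1331852, 10 of 31 members were lower in KO than in WT cells (8 sterol, 2 fatty acid), where 28.2% of all genes were called, 13.2% higher and 15% lower. In DMSO, MVD and TM7SF2 were lower in KO than in WT cells, 2 of 31 members (6.45%), where 18.5% of all genes were called, 8.29% higher and 10.2% lower, so the share of members was not above that of all genes.

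In WT cells 0 of 31 members were called for A1331852 by edgeR or limma voom, where 0.141% of all genes were called (0.0369% higher and 0.105% lower), against 10 members at an unadjusted p under 0.05 (12.8% of all genes had one) and 2 called by DESeq2, which called 415 genes in all. Median log2 changes of the sterol arm were -0.81 for A1331852 in KO cells, -0.56 for A1331852 in WT cells, -0.31 for KO against WT under A1331852, -0.08 for KO against WT in DMSO, and 0.49 for A498 deficient against add-back. Those of the fatty acid arm were -0.84, -0.35, -0.44, 0.04 and 0.845 in the same order. The median over all genes tested lay between -0.02 and 0.01 in these comparisons. The A1331852 comparison in KO cells and the KO against WT comparison under A1331852 share the KO A1331852 libraries, and are not independent of each other.

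**Figure D2:**
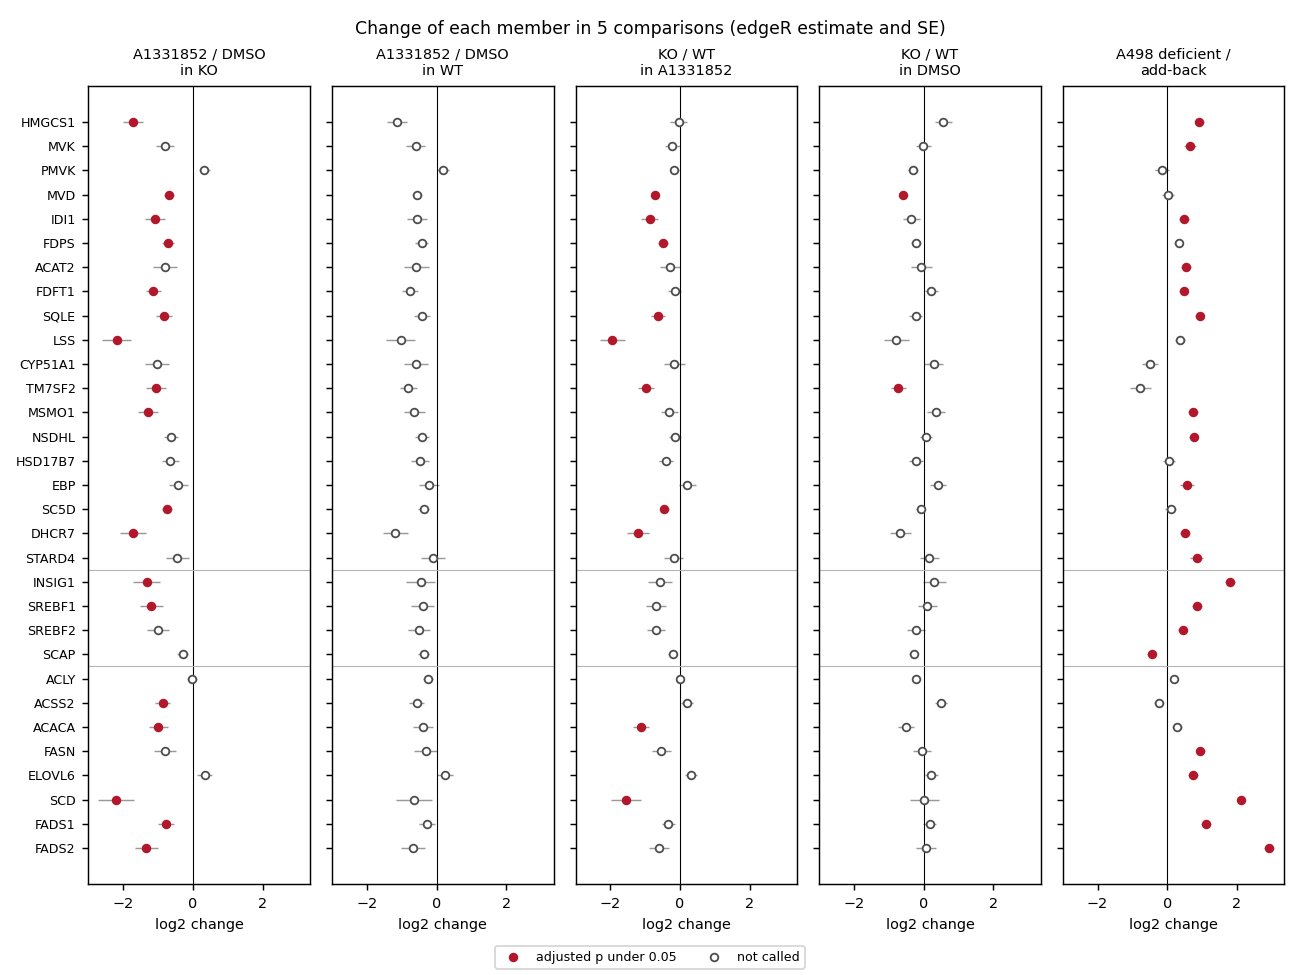
Log2 change (x axis) of each of the 31 genes in 5 comparisons, with its standard error. Filled points had an adjusted p under 0.05 and open points did not. Filled points lie left of 0 for A1331852 in KO cells and for KO against WT under A1331852, and right of 0 in A498 except SCAP.

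The counts for A1331852 in KO cells hang on single libraries. Without KO DMSO replicate 3, 2 members were called, TM7SF2 lower and ELOVL6 higher, and with the batch 1 libraries alone (3 against 1) none was. The fit without KO DMSO replicate 3 takes the batch difference from WT cells alone, and rests on it holding in KO cells. For ELOVL6 the log2 CPM of DMSO batch 1 minus batch 2 was -0.001 in WT and 1.06 in KO cells. For TM7SF2 it was 1.25 and 0.40, so these 2 calls cannot be told apart from batch. The counts were 10 without KO A1331852 replicate 1, 7 without replicate 2 and 11 without KO DMSO replicate 2. Of 6 fits without a library, the call held in 5 for HMGCS1, MVD, FDFT1, LSS, SC5D and DHCR7. It held in 4 for MSMO1, ACSS2 and SCD, 3 for FDPS and FADS2 and 2 for IDI1, TM7SF2 and ACACA. SQLE, INSIG1 and FADS1 kept it in 1 fit and SREBF1 in 0. Under A1331852, KO against WT gave 5 members without WT replicate 1, 6 without WT replicate 2, 6 without KO replicate 1 and 16 without WT replicate 3. There the call held in all 6 fits for MVD, LSS, TM7SF2 and ACACA and in 5 for DHCR7. For SC5D it held in 4, for IDI1, SQLE and SCD in 3 and for FDPS in 2. A fit of A498 without a library sets 2 libraries against 1, with 1 pair left to show the spread. In A498 the count was 12, all higher, without either add-back library.

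The mevalonate steps begin with ACAT2, the cytosolic thiolase, and HMGCS1, the synthase that adds the next acetyl unit. HMGCS1 had 83.2, 134 and 160.1 CPM in KO A1331852 libraries, 167, 129.6 and 78.3 in WT A1331852, 212, 216 and 456 in KO DMSO, and 146, 141 and 251 in WT DMSO. Every KO A1331852 library lay below every KO DMSO library. The WT treatments overlapped only through the DMSO libraries of batch 2, and all WT A1331852 libraries lay below the WT DMSO library of batch 1. Within batch 1, with 1 DMSO library each, the A1331852 minus DMSO difference of log2 CPM was -1.91 in KO and -1.07 in WT cells. The log2 change with A1331852 was -1.73 ± 0.28 in KO cells (SE, adjusted p = 0.0036, edgeR) and -1.13 ± 0.29 in WT cells (adjusted p = 0.161, edgeR). Between genotypes in DMSO, HMGCS1 had a change of 0.56 ± 0.24 (adjusted p = 0.131, edgeR), with overlapping libraries. In A498 it had 98.9 and 92.9 CPM in deficient against 58.3 and 55.1 in add-back libraries, with no overlap. That rise of 0.91 ± 0.13 (adjusted p = 1.21e-04, edgeR) was called in each fit that left out a library, each of them 2 against 1.

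MVD, the decarboxylase that makes the isoprenoid unit, was called lower in KO cells with A1331852 and with DMSO. It had 53.3, 51.0 and 62.5 CPM in KO A1331852 libraries, 96.1, 89.7 and 79.6 in WT A1331852, 107, 112 and 97.6 in KO DMSO, and 159.8, 168 and 121 in WT DMSO. KO lay below WT in all libraries of each treatment, and A1331852 below DMSO in all libraries of each genotype. The KO against WT change was -0.72 ± 0.12 under A1331852 (adjusted p = 8.67e-04, edgeR) and -0.60 ± 0.11 in DMSO (adjusted p = 0.00368, edgeR), and both calls held without each library in turn, while without a batch term the DMSO call was lost (adjusted p = 0.0506, edgeR). In DMSO the KO minus WT difference of log2 CPM was -0.31 in batch 1 (1 library each) and -0.58 in batch 2. A1331852 lowered MVD in KO cells (log2 change -0.68 ± 0.14, adjusted p = 0.00882, edgeR), and its change in WT cells was -0.56 ± 0.14 (adjusted p = 0.147, edgeR). In A498, MVD had 45.3 and 30.0 CPM in deficient and 44.1 and 39.0 in add-back libraries, which overlapped.

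The remaining mevalonate enzymes are the kinases MVK and PMVK, the isomerase IDI1 and FDPS, which joins the units to farnesyl pyrophosphate. IDI1 had 36.0, 50.9 and 52.6 CPM in KO A1331852 libraries, against 118, 83.5 and 47.5 in WT A1331852, 59.2, 64.5 and 109 in KO DMSO and 82.8, 75.5 and 111 in WT DMSO. KO A1331852 was below KO DMSO in every library and overlapped WT A1331852 through WT replicate 3. Its change was -1.09 ± 0.28 with A1331852 in KO cells (adjusted p = 0.028, edgeR) and -0.88 ± 0.24 for KO against WT under A1331852 (adjusted p = 0.0188, edgeR). FDPS changed by -0.70 ± 0.17 and -0.49 ± 0.14 in these comparisons (adjusted p = 0.0203 and 0.0234, edgeR). Its libraries spanned 122 to 147 CPM in KO A1331852, 139 to 219 in WT A1331852 and 174 to 237 in KO DMSO. In A498, IDI1 (0.49 ± 0.14), MVK (0.64 ± 0.17) and ACAT2 (0.53 ± 0.14) were higher in deficient libraries (adjusted p = 0.021, 0.0127 and 0.00966, edgeR). FDPS had a change of 0.33 ± 0.12 there (adjusted p = 0.0584, edgeR). PMVK was called in no comparison and stayed between 33.1 and 59.3 CPM.

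FDFT1, SQLE and LSS take farnesyl units to squalene, squalene to its epoxide and the epoxide to lanosterol. LSS had the most negative change of the sterol arm with A1331852 in KO cells and for KO against WT under either treatment. It had 15.9, 31.1 and 35.2 CPM in KO A1331852 libraries, 161, 103 and 44.1 in WT A1331852, 93.9, 92.1 and 136 in KO DMSO and 158, 156 and 193 in WT DMSO. KO A1331852 lay below all other 786-O libraries, and KO DMSO lay below WT DMSO without overlap. Its change with A1331852 in KO cells was -2.19 ± 0.42 (adjusted p = 0.00693, edgeR), and for KO against WT under A1331852 it was -1.94 ± 0.37 (adjusted p = 0.00233, edgeR). The KO against WT change in DMSO, -0.78 ± 0.35, was not called (adjusted p = 0.145, edgeR). In A498, LSS had 51.0 and 40.5 CPM in deficient and 39.8 and 39.9 in add-back libraries, a change of 0.35 ± 0.14 that was not called (adjusted p = 0.08, edgeR).

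SQLE, a rate-limiting oxygenase of the pathway, had 109.5 and 113 CPM in A498 deficient libraries, against 68.0 and 61.6 in add-back. The groups did not overlap, and the rise of 0.94 ± 0.13 (adjusted p = 9.62e-05, edgeR) was called in every fit without 1 library. In 786-O it had 36.4, 47.7 and 72.8 CPM in KO A1331852 libraries, 84.2, 69.0 and 81.9 in WT A1331852, 93.5, 96.8 and 100.2 in KO DMSO and 114, 105 and 98.2 in WT DMSO. A1331852 was below DMSO throughout in both genotypes, and KO A1331852 replicate 3 reached into the WT A1331852 range. The change in WT cells, -0.42 ± 0.24, was not called (adjusted p = 0.492, edgeR). SQLE changed by -0.83 ± 0.23 with A1331852 in KO cells (adjusted p = 0.0362, edgeR), a call that held in 1 of 6 fits without a library. For KO against WT under A1331852 it changed by -0.64 ± 0.20 (adjusted p = 0.029, edgeR). FDFT1 had 73.8, 87.0 and 114 CPM in KO A1331852 libraries, against 161, 166 and 228 in KO DMSO, with no overlap (change -1.13 ± 0.22, adjusted p = 0.00758, edgeR). In WT cells it had 129.9, 93.9 and 74.35 CPM with A1331852 against 149.4, 139.4 and 148.7 with DMSO, again without overlap. FDFT1 changed by -0.76 ± 0.23 there, which was not called (adjusted p = 0.204, edgeR). In A498 it had 91.5 and 90.4 CPM in deficient and 73.3 and 73.2 in add-back libraries (change 0.47 ± 0.13, adjusted p = 0.0125, edgeR).

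From lanosterol to cholesterol, DHCR7, the reductase of the last step, had 20.6, 40.1 and 55.4 CPM in KO A1331852 libraries, 106, 104 and 49.7 in WT A1331852, 106, 108 and 141 in KO DMSO, and 173, 171 and 176 in WT DMSO. A1331852 lay below DMSO in both genotypes, and KO DMSO below WT DMSO, without overlap, while WT A1331852 replicate 3 sat among the KO A1331852 values. A1331852 lowered it in KO cells (-1.72 ± 0.36, adjusted p = 0.0105, edgeR), and KO was below WT under A1331852 (-1.21 ± 0.31, adjusted p = 0.0128, edgeR). Neither WT cells with A1331852 (-1.18 ± 0.37, adjusted p = 0.217) nor KO against WT in DMSO (-0.67 ± 0.30, adjusted p = 0.15) passed the edgeR test. DHCR7 was higher in A498 deficient libraries, at 35.6 and 33.3 CPM against 26.3 and 27.6 in add-back (0.51 ± 0.14, adjusted p = 0.0136, edgeR).

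MSMO1, the methylsterol oxidase whose promoter is printed above, had 36.3, 53.9 and 91.7 CPM in KO A1331852 libraries, against 79.1, 82.2 and 159 in KO DMSO. The ranges overlapped through KO A1331852 replicate 3, and the change was -1.29 ± 0.29 (adjusted p = 0.0141, edgeR) or -1.49 within batch 1. In A498 it had 67.8 and 75.6 CPM in deficient and 47.1 and 48.9 in add-back libraries, with no overlap (0.73 ± 0.14, adjusted p = 0.00108, edgeR). NSDHL, the dehydrogenase of the next step, was higher in A498 deficient libraries by 0.75 ± 0.14 (adjusted p = 0.00103, edgeR). EBP, a sterol isomerase, was higher by 0.57 ± 0.20 (adjusted p = 0.0415, edgeR), through deficient replicate 1, at 25.9 CPM, since replicate 2 had 15.8 CPM and the add-back libraries 16.3 and 14.9.

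TM7SF2, a sterol reductase expressed at a low level, had 2.89, 2.32 and 3.32 CPM in KO A1331852 libraries, 5.42, 5.83 and 4.90 in WT A1331852, 3.54, 3.56 and 4.86 in KO DMSO and 5.05, 3.87 and 11.2 in WT DMSO. KO lay below WT without overlap under A1331852 (-0.98 ± 0.23, adjusted p = 0.00814, edgeR). In DMSO the change of -0.72 ± 0.22 (adjusted p = 0.036, edgeR) was called, and the ranges overlapped. There the KO minus WT difference of log2 CPM was -1.12 in batch 1 (1 library each, with WT replicate 3 at 11.2 CPM) and -0.28 in batch 2. Of the 6 fits lacking a DMSO library, only the one lacking WT replicate 2 kept the call. TM7SF2 had the most negative change of all members in A498, though it was not called, at 1.34 and 1.65 CPM in deficient and 2.97 and 2.75 in add-back libraries (-0.78 ± 0.30, adjusted p = 0.0648, edgeR).

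Also in this stretch, SC5D, the sterol desaturase, fell with A1331852 in KO cells (-0.74 ± 0.16, adjusted p = 0.0108, edgeR) and was lower in KO than WT under A1331852 (-0.45 ± 0.13, adjusted p = 0.0237, edgeR). HSD17B7, a ketosteroid reductase, was called in no comparison and ran from 8.65 to 20.9 CPM, and reads from its pseudogene HSD17B7P2, with 17.0% as many counts, may have been placed in either. CYP51A1, the lanosterol demethylase, shares 68.2% of its exon length with an overlapping gene and 67.8% with a further one. Its low counts (2.92 to 16.5 CPM) therefore hold only part of its reads, and its values are uncertain. EBP likewise shares 36.4%. STARD4, a carrier that moves sterol between membranes, was higher in A498 deficient libraries, at 11.1 and 11.9 CPM against 8.19 and 6.12 in add-back (0.84 ± 0.19, adjusted p = 0.00444, edgeR). In KO cells its change with A1331852 was -0.45 ± 0.33 (adjusted p = 0.395, edgeR).

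Summed over its 19 genes, the sterol arm held 736.5, 904.1 and 1106 CPM in KO A1331852 libraries, 1583, 1210.0 and 908.7 in WT A1331852, 1436, 1492 and 2129 in KO DMSO, and 1629, 1574 and 1787 in WT DMSO. KO A1331852 lay below KO DMSO in all libraries and overlapped WT A1331852. A498 had 935.2 and 845.7 CPM in deficient and 724.0 and 688.3 in add-back libraries.

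**Figure D3:**
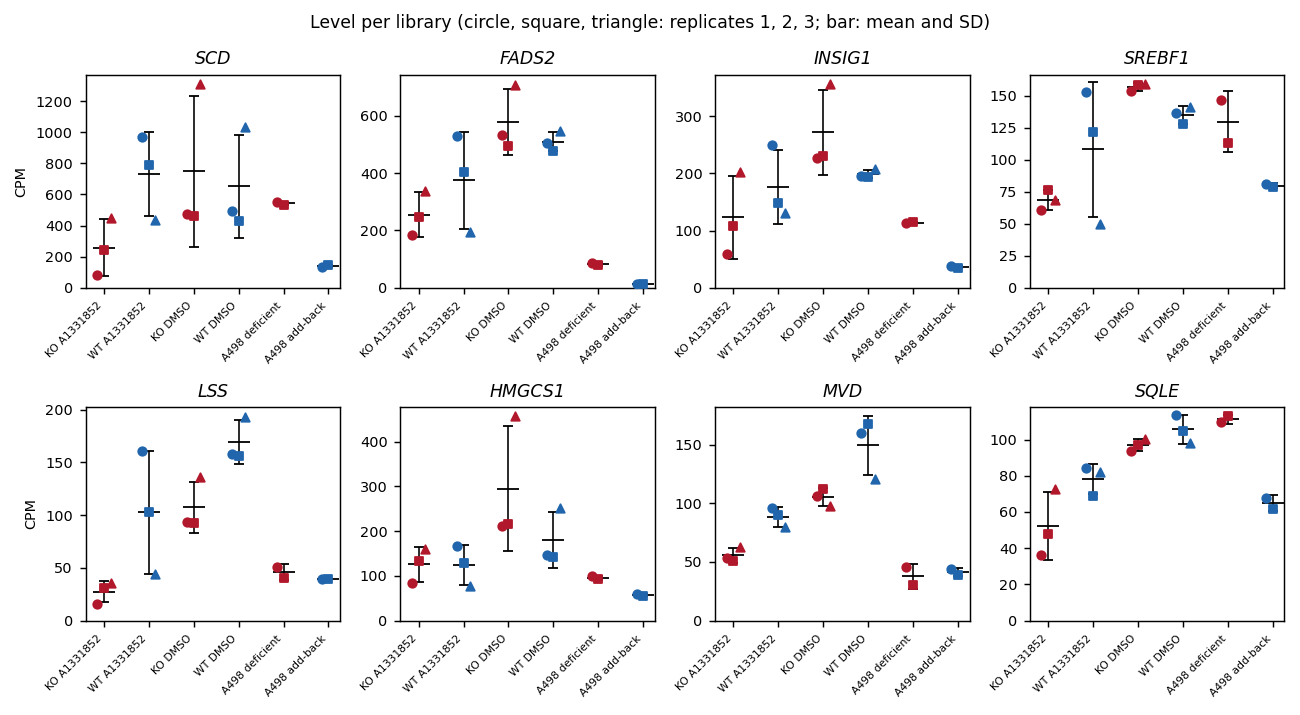
CPM per library of 8 members (SCD, FADS2, INSIG1, SREBF1, LSS, HMGCS1, MVD, SQLE) in the 6 groups, with group mean and SD (n = 3, or 2 for A498). Red is KO or deficient, blue is WT or add-back. KO A1331852 lies below KO DMSO in all 8 panels, and deficient lies far above add-back for SCD, FADS2 and INSIG1 but not for MVD.

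Of the regulators, INSIG1 encodes the sterol-sensing anchor that retains SCAP and is itself an SREBP target. It had 113 and 114 CPM in A498 deficient libraries, against 37.9 and 35.0 in add-back. The groups lay far apart, and the change was 1.80 ± 0.13 (adjusted p = 3.3e-07, edgeR), a 3.48-fold level. In 786-O, INSIG1 had 59.6, 108 and 202 CPM in KO A1331852 libraries, 249.6, 149 and 131 in WT A1331852, 228, 231 and 357 in KO DMSO and 196, 194 and 208 in WT DMSO. KO A1331852 lay below KO DMSO, whereas the WT groups overlapped. With A1331852 it fell in KO cells (-1.33 ± 0.40, adjusted p = 0.0464, edgeR), a call that held only without KO A1331852 replicate 3 among the 6 fits lacking a library. INSIG1 differed between KO and WT by -0.57 ± 0.34 under A1331852 (adjusted p = 0.24) and by 0.31 ± 0.34 in DMSO (adjusted p = 0.594, edgeR), neither of them called.

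SREBF1, the gene of the SREBP best known for fatty acid synthesis, had 60.7, 76.3 and 68.7 CPM in KO A1331852 libraries, 153, 121 and 49.6 in WT A1331852, 153, 158 and 159 in KO DMSO and 137, 128 and 141 in WT DMSO. In KO cells no library of 1 treatment came near the other, and in WT cells replicates 1 and 3 of A1331852 lay on either side of the DMSO range. The change in KO cells was -1.19 ± 0.33 (adjusted p = 0.0328, edgeR), a call lost without any 1 of the 6 libraries (adjusted p up to 0.199). In A498, SREBF1 had 147 and 113 CPM in deficient and 81.0 and 78.5 in add-back libraries (0.86 ± 0.14, adjusted p = 4.14e-04, edgeR), with no overlap.

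SREBF2, the gene of the SREBP best known for cholesterol synthesis, had 65.5, 112 and 188 CPM in KO A1331852 libraries, 206, 193 and 171 in WT A1331852, 243, 235 and 247 in KO DMSO and 256, 250.3 and 269 in WT DMSO. A1331852 lay below DMSO without overlap in both genotypes, yet neither change was called: -0.998 ± 0.311 in KO (adjusted p = 0.0536) and -0.505 ± 0.313 in WT cells (adjusted p = 0.534, edgeR). KO against WT under A1331852 was -0.70 ± 0.26 and not called (adjusted p = 0.0641, edgeR). It was called in 5 of 13 alternatives, among them a replicate block (-0.82, adjusted p = 0.0177, edgeR), but in only 1 of 6 fits without a library. In A498 SREBF2 was higher in deficient libraries (0.44 ± 0.12, adjusted p = 0.0162, edgeR). SCAP, the escort of SREBPs, was the lone member lower there, at 41.7 and 39.3 CPM in deficient against 62.6 and 60.8 in add-back libraries (-0.45 ± 0.13, adjusted p = 0.0198, edgeR).

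In the fatty acid arm, ACLY and ACSS2 supply acetyl-CoA from citrate and from acetate. ACLY was called in no comparison and ran from 323 to 632 CPM. Per kilobase of exon it was among the highest members, at 118 CPM per kb in A498 deficient and 114 in add-back libraries, and its change there was not called (adjusted p = 0.189, edgeR). ACSS2 had 24.3, 30.3 and 39.2 CPM in KO A1331852 libraries, against 42.9, 45.9 and 61.5 in KO DMSO, with no overlap (-0.87 ± 0.21, adjusted p = 0.019, edgeR). In DMSO it had a KO against WT change of 0.50 ± 0.17 (adjusted p = 0.0668, edgeR), with 31.9, 29.4 and 36.5 CPM in WT, below every KO library.

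ACACA, the carboxylase that makes malonyl-CoA, had 33.8, 57.4 and 49.2 CPM in KO A1331852 libraries, 135, 98.3 and 63.1 in WT A1331852, 116, 108 and 106 in KO DMSO and 172, 159 and 113 in WT DMSO. KO A1331852 lay below all 9 other 786-O libraries. KO was lower than WT under A1331852 (log2 change -1.12 ± 0.23, adjusted p = 0.00429, edgeR), which held without each library in turn. A1331852 lowered ACACA in KO cells (-0.99 ± 0.27, adjusted p = 0.0345, edgeR), a call that held in 2 of 6 fits without a library. FASN, the synthase of palmitate, had 133, 181 and 226 CPM in KO A1331852 libraries, 366, 249 and 148 in WT A1331852, 565, 538 and 374 in KO DMSO, and 613, 626 and 261 in WT DMSO. A1331852 lay below DMSO without overlap in KO cells, and the DMSO replicates 3, of batch 1, were the lowest of their groups. Its change in KO cells was not called (-0.81 ± 0.31, adjusted p = 0.107, edgeR). In A498, FASN was higher in deficient libraries, at 267 and 226 CPM against 132 and 152 in add-back (0.95 ± 0.13, adjusted p = 9.57e-05, edgeR).

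ELOVL6, which lengthens palmitate, was called in no 786-O comparison. It had 129, 135 and 129 CPM in KO A1331852 libraries, 112, 96.8 and 98.6 in WT A1331852, 62.8, 63.5 and 133 in KO DMSO and 62.4, 65.7 and 64.0 in WT DMSO. WT A1331852 lay above WT DMSO, and KO DMSO replicate 3 stood with the A1331852 libraries. Its change in KO cells was 0.34 ± 0.21 (adjusted p = 0.314, edgeR), or 1.10 and called without KO DMSO replicate 3 (adjusted p = 0.0122, edgeR). That fit takes the batch difference from WT cells alone. Within batch 1, with 1 DMSO library, the A1331852 minus DMSO difference of log2 CPM in KO cells was -0.02. In A498 it was higher in deficient libraries, at 53.3 and 67.2 CPM against 39.4 and 40.9 in add-back (0.74 ± 0.15, adjusted p = 0.00199, edgeR).

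Of all members, FADS2 had the largest change in A498, and SCD in KO cells with A1331852. SCD (chromosome 10, 100347233 to 100364826, plus strand, GRCh38), which turns stearate into oleate, had 84.8, 243 and 449 CPM in KO A1331852 libraries, 967, 789.5 and 436 in WT A1331852, 476, 463 and 1310 in KO DMSO and 491, 432 and 1034 in WT DMSO. KO A1331852 lay below KO DMSO, with replicate 3 just under its lowest value and within reach of WT A1331852 replicate 3. In both DMSO groups replicate 3 was more than double the others: 1310 against 476 and 463 CPM in KO cells, and 1034 against 491 and 432 in WT cells. The change with A1331852 was -2.21 ± 0.50 in KO (adjusted p = 0.0152) and -0.64 ± 0.52 in WT cells (adjusted p = 0.649, edgeR). KO was lower than WT under A1331852 (-1.55 ± 0.43, adjusted p = 0.0201, edgeR) and had a change of 0.02 ± 0.42 in DMSO (adjusted p = 0.98). In A498, SCD had 551 and 535 CPM in deficient and 136 and 144 in add-back libraries, far apart, a 4.32-fold level (log2 2.11 ± 0.12, adjusted p = 2.15e-08, edgeR).

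FADS2 and FADS1, which desaturate polyunsaturated fatty acids in turn, lie on chromosome 11, FADS2 on the plus strand (61792980 to 61867354) and FADS1 within its annotated span on the minus strand (61799627 to 61829318), and were told apart by strand in the counting. FADS2 had 182, 246 and 337 CPM in KO A1331852 libraries, 529, 403 and 194 in WT A1331852, 533, 494 and 709 in KO DMSO and 505, 478 and 545 in WT DMSO. KO A1331852 was below KO DMSO in all libraries (-1.33 ± 0.33, adjusted p = 0.0222, edgeR), and the genotypes overlapped within each treatment. In A498 it had 86.6 and 78.1 CPM in deficient and 11.99 and 12.2 in add-back libraries. The groups lay 7.57-fold apart (2.92 ± 0.15, adjusted p = 1.08e-08, edgeR), the largest change of the 31 genes in any comparison between groups. FADS1 had 103, 148 and 176 CPM in KO A1331852 libraries, against 218, 221 and 277 in KO DMSO (-0.78 ± 0.22, adjusted p = 0.0389, edgeR), with no overlap. It had 85.8 and 97.9 CPM in A498 deficient and 47.6 and 47.2 in add-back libraries (1.11 ± 0.14, adjusted p = 3.33e-05, edgeR). The A498 calls of SCD, FADS2, FADS1, FASN, ELOVL6, INSIG1 and SREBF1 held without each library in turn, as did those of HMGCS1, SQLE, MSMO1 and NSDHL.

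The fatty acid arm summed to 1086, 1463 and 1761 CPM in KO A1331852 libraries, 2752, 2259 and 1415 in WT A1331852, 2490.0, 2406 and 3409 in KO DMSO and 2630.0, 2526 and 2655 in WT DMSO, again with KO A1331852 below KO DMSO throughout. In A498 the sums were 1751 and 1769 CPM in deficient and 1066 and 1132 in add-back libraries. Per kilobase of exon, FADS2 stood at 7.80 CPM per kb in A498 deficient and 1.15 in add-back libraries, far under its 48.3 in 786-O WT DMSO. SCD stood at 104 and 26.7 CPM per kb in deficient and add-back, against 124 in WT DMSO.

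Whether the response to A1331852 differed between KO and WT cells was tested as an interaction. By edgeR, DESeq2 and limma voom 0 of 31 members passed, where 0.295% of all genes were called (0.203% higher and 0.0923% lower), and 2 had an unadjusted p under 0.05, as had 10.8% of all genes. The estimates were negative for 27 of 31, with medians of -0.35 in the sterol and -0.50 in the fatty acid arm against 0.01 over all genes. SCD had the most negative one (-1.57 ± 0.60, adjusted p = 0.36), followed by LSS (-1.16 ± 0.50, adjusted p = 0.425), INSIG1 (-0.87 ± 0.48, adjusted p = 0.56) and SREBF1 (-0.80 ± 0.38, adjusted p = 0.484, edgeR). The calls in KO cells and their lack in WT cells are therefore not shown to differ. Within the A1331852 groups and KO DMSO most members were high or low in the same library. WT A1331852 replicate 1 was the highest of its group for 29 of 31 members (93.5%, against 42.2% of the 11195 other genes whose average reached 5 CPM) and replicate 3 the lowest for 26 (83.9%, against 50%). KO A1331852 replicate 1 was the lowest for 24 (77.4%, against 43.4%) and replicate 3 the highest for 22 (71.0%, against 38.9%). In KO DMSO, replicate 3, the batch 1 library, was the highest for 22 (71.0%, against 57.1%) and replicate 1 the lowest for 19 (61.3%, against 35.4%). WT DMSO replicate 3 was the highest for 16 (51.6%, against 54.2%) and replicate 2 the lowest for 17 (54.8%, against 36.3%).

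The KO against WT difference in 786-O DMSO was set against the deficient against add-back difference in A498. For 4 of 31 members, the 3 desaturases and SQLE, the 786-O difference was lower (12.9% of members), where 13.2% of all genes were called, 6.12% higher and 7.1% lower. These were FADS2 (-2.89 ± 0.42, adjusted p = 3.74e-04, edgeR), SCD (-2.12 ± 0.61, adjusted p = 0.0311), FADS1 (-0.97 ± 0.28, adjusted p = 0.0309) and SQLE (-1.20 ± 0.28, adjusted p = 0.011, edgeR). Each was higher in deficient than add-back A498 libraries and not called between KO and WT in DMSO. INSIG1, at -1.52 ± 0.49, was not called (adjusted p = 0.0506, edgeR). It was called in 3 of 16 alternatives, among them a replicate block (adjusted p = 0.0202, edgeR), and in 0 of 10 fits without a library. With that block 11 members were called, 1 higher and 10 lower. FADS2 was called in all fits without a library, SQLE in 9 of 10, FADS1 in 2 and SCD in none, so the count was 1 without A498 add-back replicate 2, where FADS2 remained, and 2 without add-back replicate 1, deficient replicate 1, or replicate 1 or 2 of either DMSO group. The line, the batch and the kind of SETD2 change differ together here and cannot be told apart.

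**Figure D4:**
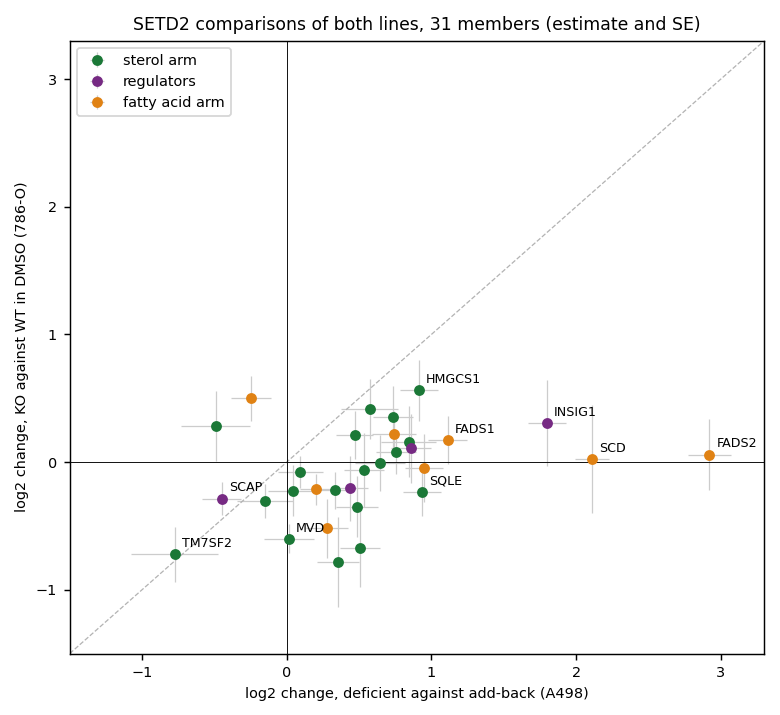
Log2 change of each of the 31 genes for A498 deficient against add-back (x axis) and for 786-O KO against WT in DMSO (y axis), with standard errors. The dashed line marks equal change. FADS2, SCD and INSIG1 lie far right, at 2.92, 2.11 and 1.80 in A498, while all genes lie between -0.78 and 0.56 on the 786-O axis.

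Of the 18 members lowered by A1331852 in KO cells, 11 (61.1%) were higher in A498 deficient libraries, 57.9% of the 19 called higher there: HMGCS1, IDI1, FDFT1, SQLE, MSMO1, DHCR7, INSIG1, SREBF1, SCD, FADS1 and FADS2. This is the share of all members called higher in A498, 19 of 31 (61.3%), so the overlap is no more than that share.

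The genes around the pathway were counted from lists. Of 11 genes of SREBP processing and sterol-regulated degradation, 4 were lower in KO than WT cells under A1331852 (15% of all genes were) and 5 in DMSO (10.2% of all genes), with the other genes of the list not called. MBTPS1, the protease that makes the first cut in SREBPs, had 75.1, 88.6 and 99.5 CPM in KO A1331852 libraries, 166, 185 and 186 in WT A1331852, 107, 107 and 108 in KO DMSO and 179, 169 and 195 in WT DMSO. KO lay below WT in every library of both treatments (-1.09 ± 0.12, adjusted p = 7.44e-05 under A1331852, and -0.86 ± 0.12, adjusted p = 4.84e-04 in DMSO, edgeR). ERLIN1, a membrane protein of the endoplasmic reticulum, was also lower in KO cells (-0.82 ± 0.13 under A1331852 and -0.72 ± 0.12 in DMSO). In A498, 3 of the 11 were called, all lower in deficient libraries, as were 15.1% of all genes, among them SPRING1, which helps SCAP recycle (-0.73 ± 0.14), and INSIG2, a relative of INSIG1 (-0.43 ± 0.16).

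Of 20 tested genes of other fatty acid steps, 5 were higher and 4 lower in KO than WT cells under A1331852 (13.2% and 15% of all genes), and 3 higher and 2 lower in DMSO (8.29% and 10.2%). SCD5, a second stearoyl-CoA desaturase, had 2.35, 2.54 and 3.25 CPM in KO A1331852 libraries, 0.118, 0.137 and 0 in WT A1331852, 3.27, 3.14 and 4.01 in KO DMSO and 0.139, 0.235 and 0.197 in WT DMSO. It was near the floor in WT cells, higher in every KO library, and changed by 4.03 ± 0.37 in DMSO (adjusted p = 3.27e-05, edgeR). ACACB, the mitochondrial counterpart of ACACA, was lower in KO (-1.57 ± 0.25 under A1331852 and -0.85 ± 0.22 in DMSO). With A1331852 in KO cells 3 of the 20 were called, all lower, as were 7.08% of all genes: SLC25A1, the citrate carrier (-0.75 ± 0.14), ACACB (-1.05 ± 0.29) and the elongase ELOVL5 (-0.45 ± 0.14). In A498, 5 of 19 were called, all higher in deficient libraries, as were 15.1% of all genes, led by MID1IP1, an activator of acetyl-CoA carboxylase, with 57.5 and 45.3 CPM against 20.5 and 21.1 in add-back (1.46 ± 0.15, adjusted p = 7.24e-06, edgeR).

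Of 20 tested genes of cholesterol uptake, transport, storage and efflux, 9 were higher and 2 lower in A498 deficient libraries (15.1% of all genes each way), among them NPC1, which exports cholesterol from lysosomes (0.75 ± 0.13, adjusted p = 7.01e-04), and NR1H3, the liver X receptor alpha (0.71 ± 0.17, adjusted p = 0.00518). ABCG1, an efflux pump, was lower (-2.90 ± 0.63, adjusted p = 0.00322, edgeR), at 0.122 and 0.122 CPM in deficient and 0.891 and 1.24 in add-back libraries. In 786-O KO cells A1331852 raised LRP8 (1.26 ± 0.17) and NCEH1 (0.98 ± 0.20) and lowered VLDLR (-1.28 ± 0.21), of 21 tested, where 3 were higher and 2 lower (6.46% and 7.08% of all genes). Between KO and WT cells 3 of the 21 were higher and 3 lower under A1331852 (13.2% and 15% of all genes), and 2 higher and 3 lower in DMSO (8.29% and 10.2%). By edgeR, 0 genes of these 3 lists were called for A1331852 in WT cells, where 1 of 11, 2 of 20 and 2 of 21 had an unadjusted p under 0.05 (12.8% of all genes), and 0 of the 11 SREBP processing genes in KO cells, where 0 had one (29.1% of all genes).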

How the data were processed

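Poly(A) RNA of 16 libraries was measured. The deposited values are counts: the authors aligned with STAR to GRCh38, per the submitters' processing notes, and, per the file headers, counted fragments per gene with featureCounts 1.5.0-p3 (strand setting 2, exons by gene name, GENCODE 41). Reads shared by overlapping genes are lost by this counting. Levels are CPM of the total count. Tests used edgeR 4.0.16 in R 4.3.3 (TMM, low-count filter by group at a minimum count of 10, quasi-likelihood F test, Benjamini-Hochberg over all genes, adjusted p under 0.05). They were tried on simulated counts with a common spread for all genes and no batch difference. That trial does not cover the batches of these data. One model with a batch term held the 12 libraries of 786-O, another the 4 of A498, and a model of all 16 gave the line difference. Alternatives were RLE factors, total counts only, no filter, DESeq2 1.42.0, limma 3.58.1 voom, no batch term, single batches, a replicate block and leaving out each library. Residuals of same-numbered KO and WT libraries correlated at 0.569 to 0.765 in DMSO and 0.271 to 0.506 under A1331852. By the rule that every pair exceeds 0.1, these numbers were taken as pairs in the replicate block alone. The main tests were not paired. In DMSO, differently numbered libraries of batch 2 correlated as highly (0.566 and 0.601), so the numbers there carry batch. Under A1331852 such pairs reached 0.222. The block moved the genes called for KO against WT in DMSO to 4646, against 3001 without it, and left the members at 2. Whether replicates came from separate cultures is not in the labels. The p-values therefore reflect library-to-library spread, which may be technical. Members and lists were chosen with earlier results of these data known. All members are described, with up to 3 called genes per list and comparison, by smallest adjusted p. Some genes of the lists are not reported here.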

Additional observations from a re-analysis of the deposited data

Results flagged for a closer look

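For 4 members the SETD2 difference was not the same in the 2 lines by a test of the difference itself (786-O KO minus WT in DMSO, less A498 deficient minus add-back): SQLE at -1.198, SCD at -2.118, FADS1 at -0.968 and FADS2 at -2.893 on the log2 scale. They are 12.9% of the members, where 13.2% of all genes were called, 6.12% higher and 7.1% lower. By calls of either direction the members do not stand out by their number, and all 4 were lower. Of 10 fits that each left out 1 library, the call held in 10 for FADS2, 9 for SQLE, 2 for FADS1 and 0 for SCD. The line, the batch and the kind of SETD2 change cannot be told apart, and SETD2's own transcript differed between KO and WT in 786-O but overlapped between the A498 groups.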

How the results depend on the processing

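RLE factors and limma voom kept every count of sterol and fatty acid members within 1.5 times. With total counts only, the median of all genes moved by 0.109 for KO against WT in DMSO, -0.155 in A498 and 0.292 for the line difference, and the split of all calls became 1881 higher and 1142 lower (main 1348 and 1653), 1454 and 3672 (2324 and 2333) and 2265 and 626 (1093 and 1269). It became 7 and 9 (6 and 17) for A1331852 in WT. Called members in DMSO became 1 sterol and 1 fatty acid gene, and the sterol median there turned to 0.031. Without a filter, members called (sterol, then fatty acid) were 5 and 2 for KO against WT in DMSO, 5 and 2 for A1331852 in WT (909 genes in all), 1 and 1 for the difference of responses (647 genes) and 4 and 5 for the line difference, with 4 fatty acid genes for KO against WT under A1331852. DESeq2 called 1 fatty acid member for KO against WT in DMSO, 2 sterol members and 415 genes for A1331852 in WT, 371 genes for the difference of responses and 2 sterol members for the line difference.

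Without a batch term, KO against WT gave 2489 genes, 3 sterol and 1 fatty acid members under A1331852, and 1490 genes and 0 sterol members in DMSO. A1331852 in WT gave 6 genes, with SCD turned to 0.06, and the difference of responses 7. Batch 2 alone, whose replicates hardly differ, gave 9276 genes, 15 sterol and 4 fatty acid members in DMSO, with a fatty acid median of -0.083, SCD at -0.062 and FADS2 at -0.023. Batch 1 alone (3 against 1, the lone sample assumed to vary like the others) gave 85 genes and 0 sterol and 0 fatty acid members for A1331852 in KO, 0 genes in WT and 0 for the difference. With a replicate block, called genes were 4646 for KO against WT in DMSO, 2831 for A1331852 in WT (4 sterol members), 4311 in KO, 334 for the difference of responses and 3972 for the line difference (5 sterol and 5 fatty acid members). Numbers do not pair A1331852 with DMSO libraries (residual correlations -0.0465 to 0.0542). A498 has only 2 pairs, and with 2 libraries per group their correlations (0.152 each) are equal by construction and count as 1 value. A block there called 23 members, 21 higher and 2 lower. The block changed no call of KO against WT except SREBF2 under A1331852.

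Leaving out 1 library at a time, called genes, sterol and fatty acid members ranged as follows. A1331852 in KO gave 781 to 2602, 1 to 12 and 1 to 5. A1331852 in WT gave 0 to 64 genes. KO against WT under A1331852 gave 4 to 10 sterol and 1 to 4 fatty acid members, and in DMSO 1614 to 1777 genes and 1 to 2 sterol members, with a fatty acid median of -0.122 to 0.103, SCD at -0.10 to 0.10 and FADS2 at -0.061 to 0.12. The difference of responses gave 0 to 5.0e+02 genes and 0 to 1 sterol members, A498 2246 to 6272 and 5 to 14, and the line difference 1151 to 1782, 0 to 2 and 1 to 3. The cause of these changes was not tested. Low levels limit TM7SF2 and CYP51A1.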

Other observations

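Of 15 genes of the isoprenoid branches that leave the mevalonate pathway, 1 was higher and 2 lower in KO than WT cells under A1331852 (13.2% and 15% of all genes), 3 higher and 2 lower in DMSO (8.29% and 10.2%), and 4 higher and 1 lower in A498 deficient libraries (15.1% each way). COQ2, which attaches the tail of coenzyme Q, was higher in each of these (0.57 ± 0.17 and 0.64 ± 0.17 in KO cells, 0.65 ± 0.14 in A498 deficient), while DHDDS, of dolichol synthesis, was lower in KO cells (-0.40 ± 0.11 and -0.45 ± 0.11). By edgeR, A1331852 gave no call among the 15 in KO cells, where 0 also had an unadjusted p under 0.05 (29.1% of all genes). Of 4 tested genes of oxysterol and bile acid precursor enzymes, CYP39A1 was higher in KO than WT cells in DMSO (2.24 ± 0.44, adjusted p = 0.0047) and CYP27A1 likewise (1.73 ± 0.44, adjusted p = 0.0179), both under 2.2 CPM in every 786-O library. In A498, of 3 tested, HSD3B7 was higher (0.68 ± 0.14) and CYP46A1 lower (-1.26 ± 0.35) in deficient libraries.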
